A study of Homo sapiens with 6 samples.

Results

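The 10 genes described here encode ligands, antagonists, receptors and intracellular mediators of the Wnt pathway (DKK1, DKK3, SFRP1, WNT5A, WNT5B, FZD2, LRP6, AXIN2, CTNNB1 and TCF7L2). They were chosen by name, not by their values, and counts of all transcripts annotated to a gene were summed. All 10 were among the 61014 genes on file and all 10 passed the filter on low counts, as did 20442 genes in all. RNA was sequenced from the human triple-negative breast cancer line MDA-MB-231. Its cells had been selected for paclitaxel resistance and then sorted on aldehyde dehydrogenase (ALDH) activity with the ALDEFLUOR assay. The 3 libraries called BCSC came from ALDH+ cells (breast cancer stem cells) and the 3 called non-BCSC from ALDH− cells. By the study's account the paclitaxel-resistant line is common to both groups, so no untreated parental cells were analysed here. The sample titles name that line for BCSC only. All 6 libraries are from 1 line, and nothing states that the replicates came from separate cultures or sorts, so p-values measure the spread between these libraries, which may be technical.

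Wnt ligands are secreted proteins that bind Frizzled receptors. In the canonical branch a Frizzled receptor acts with the co-receptor LRP5 or LRP6, and the signal keeps β-catenin, the product of CTNNB1, from being degraded by a complex that holds AXIN, APC and the kinases GSK3 and CK1. β-catenin then enters the nucleus and works with TCF/LEF factors such as TCF7L2 on target genes. In other branches, of which WNT5A is the best known ligand, signalling does not pass through β-catenin. Secreted antagonists act outside the cell: Dickkopf proteins such as DKK1 bind LRP5 and LRP6, and secreted Frizzled-related proteins such as SFRP1 bind the ligands. Several pathway genes, among them AXIN2 and DKK1, are also known targets of β-catenin and TCF.

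DKK1 was the member that differed most. It was 3.80-fold higher in BCSC and was the only one of the 10 called changed. A call here is a Benjamini-Hochberg adjusted p under 0.05 in edgeR's quasi-likelihood test together with a fold above 2, and 8.85% of all genes tested were called higher in BCSC and 11.3% lower. SFRP1, LRP6 and CTNNB1 were lower in BCSC by 1.82-, 1.48- and 1.36-fold, at an adjusted p under 0.05 but short of that fold. DKK3, AXIN2, FZD2, WNT5A, WNT5B and TCF7L2 did not pass the test. Without a minimum fold, 1 member was thus higher and 3 were lower, against 15.3% of all genes higher and 14.6% lower. The 3 BCSC libraries lay wholly above the 3 non-BCSC libraries for 2 members and wholly below for 3, against 24.2% and 27.9% of all genes. The median log2 fold change of the members was 0.29, and that of all genes tested was −0.05.

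**Figure D1:**
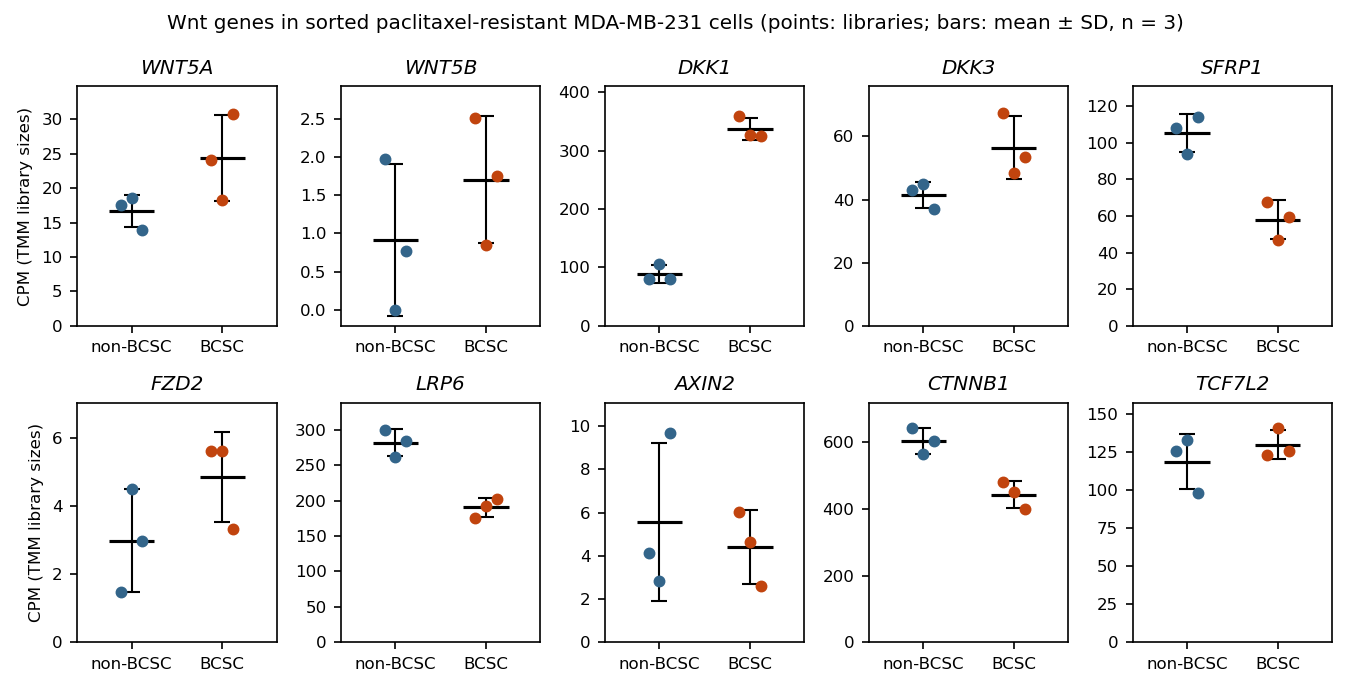
Level of each of the 10 genes in CPM (counts relative to TMM-scaled library size) on linear axes that differ between genes, with the 3 non-BCSC and 3 BCSC libraries as points, lines at the group means and bars of 1 SD. DKK1 lay at 325 to 359 CPM in BCSC and at 79.5 to 106.5 CPM in non-BCSC, while the points of AXIN2, FZD2, WNT5A, WNT5B and TCF7L2 overlapped between the groups.

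Total counts ran from 15925943 to 21215352 in BCSC and from 9898588 to 12263667 in non-BCSC. Genes of the 407 olfactory receptors, which such cells are not known to use, took 39.5 to 151.4 CPM of all counts in BCSC and 537.7 to 1228 CPM in non-BCSC. Mesenchymal markers of the line (6 genes) summed to 6401 to 7519 CPM in BCSC and 4068 to 5485 CPM in non-BCSC. The 4 ALDH genes summed to 31.5 to 37.5 CPM in BCSC and 25.1 to 43.6 CPM in non-BCSC. ALDH1A3 held most of that sum in BCSC but not in every non-BCSC library. It was at 29.8 CPM in BCSC and 17.5 CPM in non-BCSC, with the groups apart but not past the test (edgeR adjusted p = 0.0577). The other 3 ALDH genes, with fewer counts, were called lower in BCSC. Sums of other cell types' markers were higher in non-BCSC: 80.9 to 93.4 against 27.7 to 30.8 CPM for 6 luminal epithelial genes, 14.9 to 26.2 against 0.848 to 1.81 CPM for 6 immune genes, 70.6 to 90.3 against 34.6 to 48.6 CPM for fibroblast genes and 60.1 to 97.6 against 34.1 to 51.3 CPM for the endothelial genes matched. In non-BCSC single genes carried most of 3 of these sums: KRT8 (58.6 CPM, luminal), PTPRC (18.9 CPM, immune) and CDH5 (66.5 CPM, endothelial). Other listed genes went the other way. GATA3 (14.5 against 9.75 CPM) and KDR (16.4 against 9.24 CPM) were higher in all BCSC libraries, neither past the test. These genes are named here for their values. The part of the markers in the results below was not tested. In such bulk libraries, fewer cells of a type and less RNA per cell cannot be told apart.

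DKK1 (ENSG00000107984, chromosome 10, 52314281 to 52317657 on GRCh38.p14) encodes the Dickkopf protein that binds LRP6 and blocks its use by Wnt ligands. BCSC replicates 1 to 3 held 7287, 5016 and 5377 of its counts, and non-BCSC replicates 1 to 3 held 963, 1206 and 839. In CPM, scaled with TMM normalization, these were 359, 327 and 325 against 79.5, 106.5 and 80.5. The lowest BCSC library was above the highest non-BCSC library by a wide margin, and the difference was far larger than the spread within either group. The means were 337 ± 18.9 and 88.8 ± 15.4 CPM (SD, n = 3 each), or 1.92 on the log2 scale (SE 0.13, adjusted p = 6.4e-05 in edgeR). Per kb of transcript, DKK1 had 1951 times the mean count of olfactory receptor genes in BCSC and 52.95 times in non-BCSC. It kept its call in each of the 14 alternative settings, with log2 fold changes from 1.64 to 2.45.

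The stretch just before the start of DKK1 is shown because DKK1 is the member that changed and a known β-catenin/TCF target, and that of CTNNB1 is set beside it as a member that fell. Both are 250 bases of the RefSeq GRCh38.p14 reference on the plus strand (DKK1 chr10:52314031-52314280, CTNNB1 chr3:41199255-41199504). Capitals mark matches, on either strand, to the TCF/LEF type words (CTTTGAA or its variant CTTTGAT, and CTTTGTA or its variant CTTTGTT) and to the TATA word, which is TATAAA.
DKK1: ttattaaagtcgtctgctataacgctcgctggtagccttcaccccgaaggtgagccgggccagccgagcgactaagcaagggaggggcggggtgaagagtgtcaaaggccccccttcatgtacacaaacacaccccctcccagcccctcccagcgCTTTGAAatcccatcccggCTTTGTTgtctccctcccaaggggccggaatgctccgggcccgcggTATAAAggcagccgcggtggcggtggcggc
CTNNB1: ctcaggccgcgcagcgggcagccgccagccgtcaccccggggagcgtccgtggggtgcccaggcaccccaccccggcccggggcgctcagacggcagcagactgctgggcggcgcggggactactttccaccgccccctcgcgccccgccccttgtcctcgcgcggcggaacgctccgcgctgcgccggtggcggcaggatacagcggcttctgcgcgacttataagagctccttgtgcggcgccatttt
The DKK1 stretch held 2 TCF/LEF type matches, starting 95 and 76 bases before the annotated start, and a TATAAA match 30 bases before it, none of which overlap. Its GC content was 62.8%, and that of the CTNNB1 stretch, which held no match, was 74.4%. Of 35116 promoter entries, 12% held at least 1 of the TCF/LEF type words in the same 250 bases, 1.21% held at least 2, and 10.7% held TATAAA. RefSeq promoters were matched for 5 of the 10 members, with 9 entries, of which 2 held a TCF/LEF type match. These were the DKK1 entry and 1 entry of TCF7L2, with a match starting 133 bases before its start. TCF7L2 did not pass the test between the groups. With promoters for only 5 of the 10 members, whether a match goes with a change was not tested. A match is a run of letters, and binding was not measured.

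DKK3 (ENSG00000050165, chromosome 11, 11963036 to 12009745) is a divergent Dickkopf family protein that, unlike DKK1, is not an established LRP6 ligand. BCSC libraries were at 67.5, 48.5 and 53.3 CPM and non-BCSC libraries at 42.9, 44.8 and 36.9 CPM. All 3 BCSC libraries were above all 3 non-BCSC libraries, but BCSC replicate 1 stood well above the other two and the gap between the groups was narrow. With means of 56.5 ± 9.88 and 41.5 ± 4.11 CPM the log2 fold change was 0.44 (SE 0.17), which did not pass the test (edgeR adjusted p = 0.0788).

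SFRP1 (ENSG00000104332, chromosome 8, 41261962 to 41309473) encodes a secreted Frizzled-related protein, a soluble antagonist that carries a Frizzled-type ligand-binding domain. Its levels were 67.4, 46.6 and 59.6 CPM in BCSC and 108, 93.9 and 114 CPM in non-BCSC. The groups did not overlap, and among the members the antagonists DKK1 and SFRP1 thus differed in opposite directions. The means were 57.9 ± 10.5 and 105 ± 10.3 CPM, and SFRP1 fell by 0.86 on the log2 scale (SE 0.16, edgeR adjusted p = 0.00518). It was near the fold threshold: the filter of at least 10 counts in every library gave −1.01, a correction for GC content and length gave −1.42 (adjusted p = 0.000217) and removal of the olfactory receptor background gave −1.13, all of which are calls.

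Within a library, DKK1 counts were 5.32, 7.03 and 5.46 times those of SFRP1 in BCSC against 0.737, 1.14 and 0.706 times. This ratio needs no scaling between libraries. With DKK1 wholly higher and SFRP1 wholly lower in BCSC, it had to separate the groups. The same holds for the ratio to LRP6 below, so neither separation is added support. DKK1 counts were likewise 2.04, 1.70 and 1.6 times those of LRP6 in BCSC against 0.265, 0.408 and 0.283 times. Here the antagonist had more counts than the co-receptor it binds in all 3 BCSC libraries and fewer in all 3 non-BCSC libraries. Counts are not corrected for the longer LRP6 transcript, so the position of the ratio against 1 is not a ratio of molecules. A length factor common to all libraries cancels in its change between groups, whereas length or GC effects that differ between libraries do not.

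WNT5A (ENSG00000114251, chromosome 3, 55465715 to 55505263) and WNT5B (ENSG00000111186, chromosome 12, 1617056 to 1647212) are closely related ligands, known mostly for signalling that bypasses β-catenin. WNT5A measured 24.0, 18.3 and 30.8 CPM in BCSC and 17.5, 18.6 and 14 CPM in non-BCSC. BCSC replicate 2 lay within the non-BCSC range, and the log2 fold change of 0.55 (SE 0.26) did not pass the test (edgeR adjusted p = 0.137). After the correction for GC content and length it was 0.82 with an adjusted p of 0.0235, still short of the 2-fold threshold. WNT5B was sparse, with 51, 13 and 29 counts in BCSC against 24, 0 and 8. The count of 0 allows up to 3 counts by counting error alone, and the log2 fold change of 0.89 had an SE of 1.25 (adjusted p = 0.618), so a difference was not detectable at this depth. Set against olfactory receptor genes, WNT5B had 14.1 times their count per kb in BCSC and 0.775 times in non-BCSC. WNT5A had 42.4 times in BCSC and 3.01 times in non-BCSC.

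FZD2 (ENSG00000180340, chromosome 17, 44557484 to 44561262), a Frizzled receptor of a single exon that can bind WNT5A, had 114, 86 and 55 counts in BCSC against 18, 51 and 31. These were 5.62, 5.61 and 3.33 CPM against 1.49, 4.51 and 2.97 CPM. BCSC replicate 3 fell inside the non-BCSC range, and the log2 fold change of 0.70 (SE 0.59) did not pass (edgeR adjusted p = 0.392). Relative to olfactory receptor genes its count per kb was 13.1 in BCSC and 0.819 in non-BCSC. Its direction turned to −0.58 with the GC and length correction.

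LRP6 (ENSG00000070018, chromosome 12, 12116025 to 12267044) is the co-receptor that DKK1 binds. Its counts were similar in all libraries, at 3571, 2943 and 3354 in BCSC against 3633, 2955 and 2962, but the non-BCSC libraries were smaller. Scaled to library size it was at 176, 192 and 203 CPM in BCSC and at 299.8, 261 and 284 CPM in non-BCSC, with no overlap. The means of 190 ± 13.6 and 282 ± 19.5 CPM lay −0.57 apart on the log2 scale (SE 0.10, adjusted p in edgeR = 0.00477). Among all members LRP6 had the lowest GC content, 41.0%, and with the GC and length correction its change was −0.21 (adjusted p = 0.172), no longer past the test. Across all genes tested, the log2 fold change rose with GC content (Spearman rho 0.538 across genes, a description of these libraries), and the correction brought this to −0.080.

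AXIN2 (ENSG00000168646, chromosome 17, 65528563 to 65561648) is a scaffold of the β-catenin destruction complex and a widely used readout of β-catenin activity. It was low in all libraries, with 122, 71 and 43 counts in BCSC against 50, 32 and 101. Non-BCSC replicate 3 was the highest library at 9.69 CPM and non-BCSC replicates 1 and 2, at 4.13 and 2.83 CPM, were inside the BCSC range of 2.60 to 6.01 CPM. The log2 fold change was −0.33 (SE 0.59, edgeR adjusted p = 0.702). It was 0.36 without non-BCSC replicate 3 and 0.87 with the olfactory receptor background removed, so no direction can be given. Its count per kb was 10.9 times that of olfactory receptor genes in BCSC and 1.35 times in non-BCSC.

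CTNNB1 (ENSG00000168036, chromosome 3, 41199505 to 41240443), which encodes β-catenin, had the most counts of the 10 genes. It was at 478, 449 and 399 CPM in BCSC and at 640.1, 564.5 and 603 CPM in non-BCSC. The groups were apart, with means of 442 ± 40.2 and 602.5 ± 37.8 CPM, −0.45 apart on the log2 scale (SE 0.10, adjusted p in edgeR = 0.0118). Without BCSC replicate 2 the adjusted p was 0.062, without non-BCSC replicate 1 it was 0.063, and with the GC and length correction the change was −0.27 (adjusted p = 0.105). β-catenin is regulated mainly as a protein, which was not measured.

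TCF7L2 (ENSG00000148737, chromosome 10, 112950247 to 113167678) is a DNA-binding partner of β-catenin. Its levels of 123, 141 and 125 CPM in BCSC and 125, 133 and 98.0 CPM in non-BCSC overlapped. The means were 130 ± 9.72 and 119 ± 18.3 CPM, or 0.13 on the log2 scale (SE 0.14, adjusted p in edgeR = 0.496). Its sign turned to −0.019 with the filter of at least 10 counts in every library, to −0.16 with the GC and length correction and to −0.15 with the background removed.

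**Figure D2:**
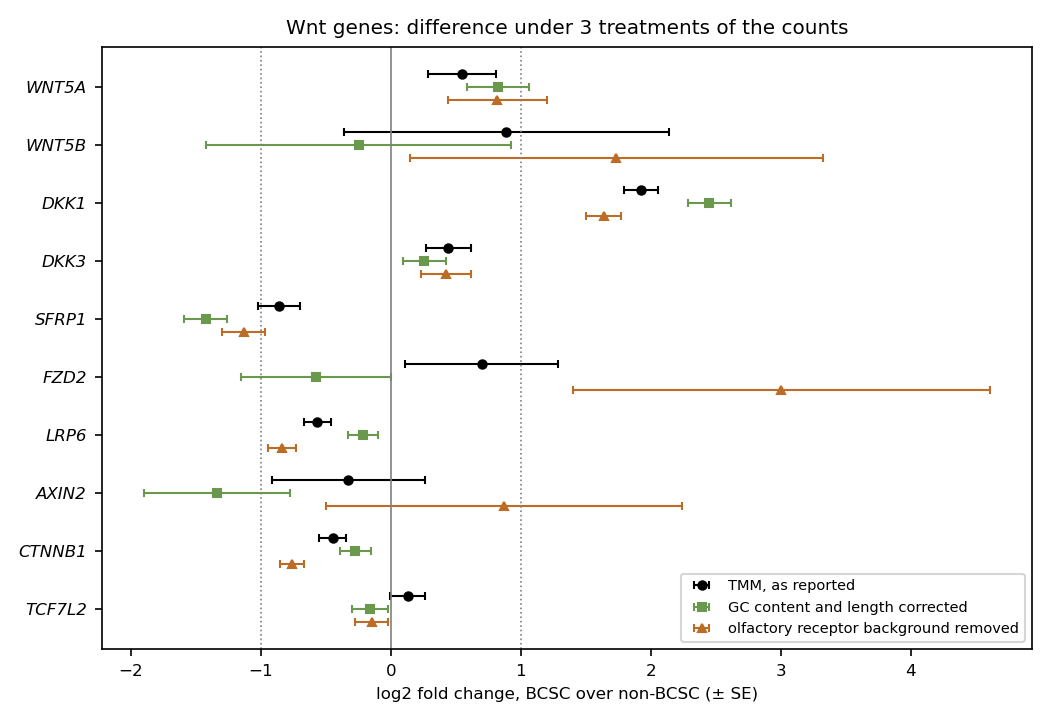
Log2 fold change of BCSC over non-BCSC for each of the 10 genes, with bars of 1 SE and dotted lines at a 2-fold change, as reported (TMM), with the GC and length correction and with the olfactory receptor background removed. DKK1 lay between 1.64 and 2.45, SFRP1, LRP6 and CTNNB1 lay below 0 under all 3, and WNT5B, FZD2, AXIN2 and TCF7L2 lay on both sides of 0.

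Compared per kb of transcript, the scale on which levels of different genes can be set side by side, the order of the members changed at the top. In BCSC, DKK1 was highest at 191.7 CPM per kb and CTNNB1 next at 120.5. In non-BCSC, CTNNB1 was highest at 164 CPM per kb and DKK1 next at 50.5. Below them the order was the same in both groups for TCF7L2 (44.05 in BCSC and 40.25 in non-BCSC), LRP6 (19.1 and 28.3), SFRP1 (13.0 and 23.6), DKK3 (6.81 and 5.01) and WNT5A (4.17 and 2.85 CPM per kb). WNT5B, FZD2 and AXIN2 were lowest, at 1.05 to 1.33 CPM per kb in BCSC and 0.716 to 1.32 in non-BCSC, and their ranges over libraries overlapped. The ranges of all other neighbours in the order were apart. A gene's length was weighted by the counts of its transcripts, whose division varied between replicates as described below. The ranges do not include that uncertainty.

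The 10 genes have 143 transcripts on file, of which 56 were at 0 in all libraries and 42 passed the filter on low counts. In the same test on transcripts, with p-values adjusted over 46176 transcripts, 1 of the 42 was called, against 0.784% of all transcripts tested. It was DKK1-201 (ENST00000373970.4), at 7147, 4906 and 5022 counts in the BCSC libraries against 926, 1156 and 782 in the others. Its log2 fold change was 2.02 (SE 0.19, edgeR adjusted p = 0.0359), and it held 93.2% to 98.1% of the DKK1 counts in every library. That call was lost whenever any 1 library was left out, each of which left 0 member transcripts called.

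How counts were divided among transcripts of a gene varied between replicates of a group. The common biological coefficient of variation, edgeR's measure of spread between replicates, was 1.02 for transcripts and 0.453 for gene sums. For WNT5A, BCSC replicate 1 had 472 counts on WNT5A-201 and 0 on WNT5A-202, whereas the other two BCSC libraries had 0 on WNT5A-201 and 279 and 496 on WNT5A-202. All 3 non-BCSC libraries had their counts on WNT5A-202, at 202, 204 and 144. LRP6-203 had 1028, 0 and 0 counts in the BCSC libraries against 29, 945 and 0 in the others, while LRP6-201 had 2411, 2940 and 3351 against 3600, 2009 and 2950. In all, 27 member transcripts had 0 counts in 1 library and at least 50 in another of the same group.

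CTNNB1 and TCF7L2, the members with the most transcripts on file, were divided most unevenly. The transcript with the largest share of CTNNB1 was 1 of 4 different ones depending on the library, and that of TCF7L2 was 1 of 5. CTNNB1-253, annotated as a retained intron, took 1552, 2638 and 1237 counts in the BCSC libraries against 271, 742 and 893 in the others. CTNNB1-201, a coding transcript, had 438, 0 and 536 against 5174, 362 and 1218. TCF7L2-216 took 681, 249 and 1475 counts against 29, 62 and 0, a log2 fold change of 4.19 with an SE of 1.74 that did not pass the test (edgeR adjusted p = 0.30). DKK3-217 (chosen here for its values) was at 143, 96 and 27 in the BCSC libraries and at 0 in each non-BCSC library. It was not called (edgeR adjusted p = 0.0769). Its BCSC mean was 19.9-fold that of a floor of 3 counts per library, a limit that covers counting error only. It passed the filter on low counts only through BCSC, so its direction is no result.

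**Figure D3:**
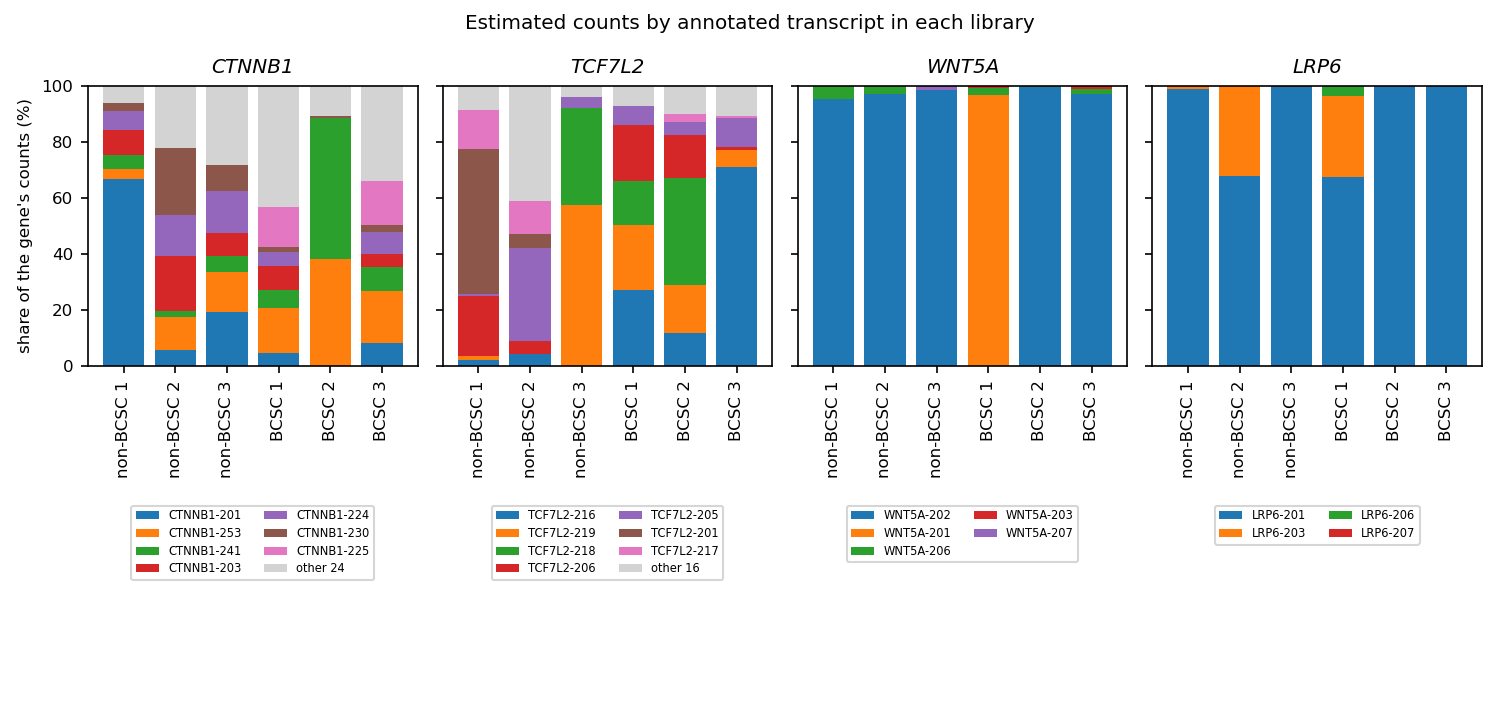
Share of the gene's counts, in percent, held by each annotated transcript of CTNNB1, TCF7L2, WNT5A and LRP6 in each of the 6 libraries (stacked bars, smaller transcripts joined as other). The leading transcript of CTNNB1 was 1 of 4 and that of TCF7L2 1 of 5, and BCSC replicate 1 alone had WNT5A on WNT5A-201.

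The other genes of the pathway were taken from 6 lists by role, 103 genes in all with the members, of which 78 passed the filter on low counts. Leaving out the members, 16 of 68 tested genes were called higher in BCSC and 10 lower, and their median log2 fold change was 0.43. Over all genes tested, 8.85% were called higher and 11.3% lower, with a median of −0.05. The counts of each list below stand beside these shares. The 10 lower calls, and the calls among ligands and among receptors, were near them and are not read as results about the pathway. These counts depended on single libraries: without BCSC replicate 1 they were 5 and 5, without BCSC replicate 2 they were 12 and 5, without non-BCSC replicate 1 they were 18 and 4, and without non-BCSC replicate 3 they were 9 and 6. With the GC and length correction they were 2 and 9.

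Among the ligands and the genes that modify or release them, 10 of 21 were tested, 1 was called in each direction and the median log2 fold change was 0.68. WNT7B, a ligand of the canonical branch in several epithelia, was at 21.2 ± 11.1 CPM in BCSC and 5.56 ± 2.20 in non-BCSC, or 1.93 on the log2 scale (SE 0.44, adjusted p in edgeR = 0.0117), which was 0.02 with the GC and length correction. That call was also lost without BCSC replicate 1 (adjusted p = 0.0606) and with the background removed (adjusted p = 0.0978). WLS, which carries Wnt proteins to the cell surface, was at 67.5 ± 11.1 and 38.3 ± 2.58 CPM, a log2 fold change of 0.82 (adjusted p = 0.00686) short of the 2-fold threshold. WNT3 did not pass the test (0.48, SE 0.64), though it was called higher with the background removed (8.69, edgeR adjusted p = 0.0173). Its count per kb in non-BCSC was 0.93 times that of olfactory receptor genes, so the removal took away about all of it there. That call is not read as a result.

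Of 16 antagonists, 10 were tested, 2 were called higher (DKK1 and KREMEN1) and 5 lower, with a median of −1.85. Of these 5, all but SOSTDC1 had few counts, near the level of olfactory receptor genes, and passed the filter only through non-BCSC. KREMEN1, a receptor that acts with DKK1 on LRP6, was at 8.23 ± 1.49 CPM in BCSC and 2.0 ± 1.5 in non-BCSC, or 2.04 on the log2 scale (SE 0.61, adjusted p in edgeR = 0.0323). That call was lost without any single library other than non-BCSC replicate 3, and with the GC and length correction the change was 0.64. SOSTDC1, a secreted antagonist that binds LRP6, was lower at 5.42 ± 2.26 against 36.9 ± 18.4 CPM, a log2 fold change of −2.76 (adjusted p = 0.00301). APCDD1, a membrane antagonist, had a value of −0.95 and did not pass (adjusted p = 0.0671), but was called lower in 5 of the 14 alternatives, among them without non-BCSC replicate 3 (−1.14) and with the GC and length correction (−1.81). With the olfactory receptor background removed, 6 antagonists in place of 10 could be tested and 2 were called lower, SOSTDC1 and SFRP1, the latter not among the 5. The median of those 6 was −0.23, and that of the 10 with the GC and length correction was −1.89.

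Of 25 receptors and their regulators, 20 were tested, 2 were called higher and 3 lower, with a median of −0.12. LGR4, a receptor for R-spondins, was at 135 ± 19.1 CPM in BCSC and 312 ± 42.7 in non-BCSC (log2 fold change −1.20, edgeR adjusted p = 0.000689), and was at −0.90 with the GC and length correction, short of a call. FZD1 was lower too, at 15.5 ± 2.86 against 44.6 ± 7.01 CPM (−1.53), whereas FZD4 was higher, at 37.4 ± 6.06 against 17.9 ± 6.07 CPM (1.06). FZD1 and FZD4, named for their small p-values, thus differed in opposite directions, which is not read as a result about Frizzled genes. The FZD4 call was near the fold threshold and was lost in 7 settings, with values of 0.87 to 1.48.

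All 17 genes of the destruction complex and Dishevelled list were tested, 6 were called higher and 0 lower, with a median of 0.58. DVL3, a Dishevelled protein that relays the signal from Frizzled, was at 102 ± 23.0 against 33.0 ± 1.46 CPM (log2 fold change 1.63, edgeR adjusted p = 0.000509). CSNK1D, a CK1 kinase, was also called higher (1.03), near the fold threshold, and lost its call in 7 settings, 2 of them without BCSC replicate 1 (0.82) and without non-BCSC replicate 3 (0.93). APC, the scaffold of the complex, was at 390 ± 21.1 against 252 ± 6.90 CPM, a log2 fold change of 0.63 (adjusted p = 0.00179), short of 2-fold as reported. The median GC content of this list was 53.1%, and that of all genes tested was 44.8%. With the GC and length correction the list median was 0.06 (0.87 with the background removed) and 1 gene of the list was called higher. That gene was APC, at 1.06 (adjusted p = 0.000284), while DVL3 was at 0.12 and CSNK1D at −0.38.

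All 16 nuclear genes were tested, 6 were called higher and 0 lower, with a median of 1.07. BCL9L and BCL9, adaptors that tie β-catenin to Pygopus, rose by log2 fold changes of 2.0 and 1.14, and CREBBP, an acetyltransferase that β-catenin recruits, by 1.26 (edgeR adjusted p of 0.00240, 0.00531 and 0.000588). With a median GC content of 55.1%, this list also went to 1 higher call under the GC and length correction. There the list median was −0.06 (1.33 with the background removed), and BCL9L was at −0.021, BCL9 at 0.066 and CREBBP at −0.10. BCL9 was short of 2-fold without BCSC replicate 1 too (0.96). CTNNB1 and TCF7L2, the 2 members in the list, had the values given above and were not among its calls.

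Of 17 known targets, 13 were tested, 3 were called higher and 2 lower, with a median of 0.16. DKK1 is one of the 3, and TCF7 and LEF1, both also on the nuclear list, are the others. LEF1 was at 18.7 ± 2.56 against 7.53 ± 2.45 CPM (log2 fold change 1.31, edgeR adjusted p = 0.0149) and was at 1.08 with the GC and length correction, also a call. Its call was lost without BCSC replicate 2 (adjusted p = 0.0742) and with the background removed (adjusted p = 0.0709). CCND1, a cyclin of the G1 phase, was at 339 ± 21.7 against 181 ± 8.99 CPM (0.91, adjusted p = 0.000516), short of 2-fold, and was at 0.27 (adjusted p = 0.0635) with the GC and length correction. TNFRSF19 was called lower (−1.18), a call lost without non-BCSC replicate 1 (−0.98) and with the GC and length correction (−0.87). AXIN2 did not pass.

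**Figure D4:**
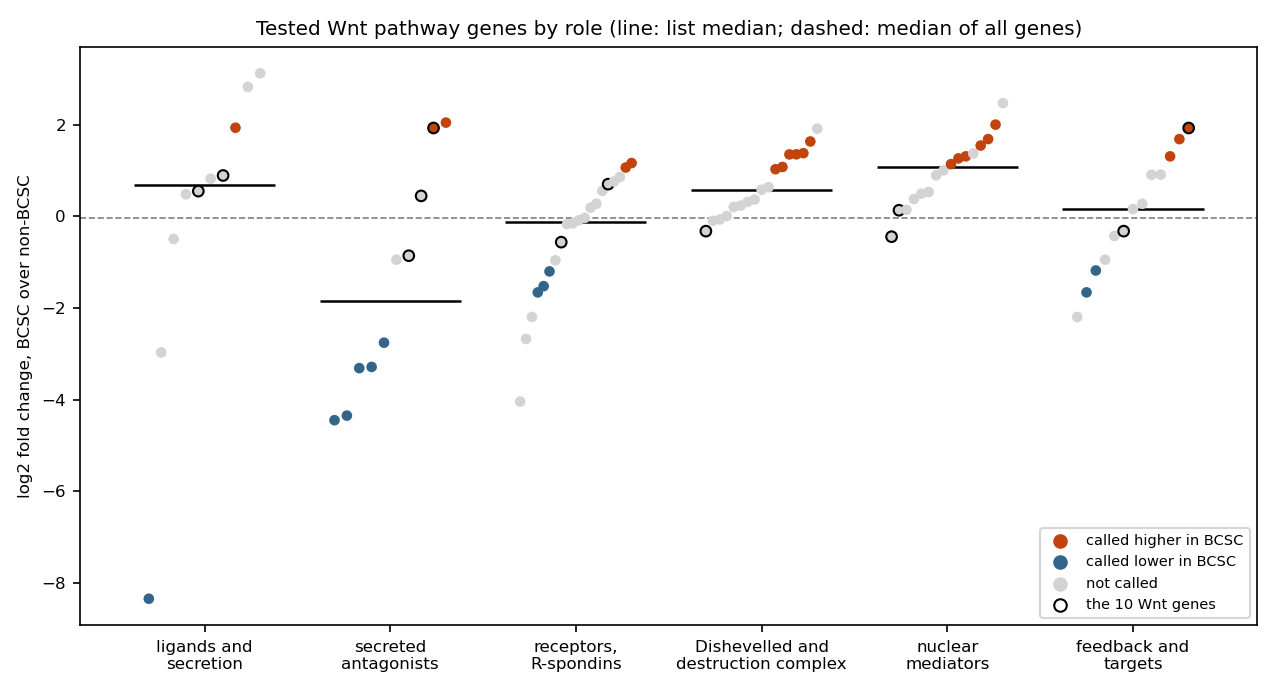
Log2 fold change of BCSC over non-BCSC of every tested gene in the 6 lists by role, each point a gene, with solid lines at each list's median, a dashed line at the median of all genes, colour for called genes and a black ring for the 10 genes. The medians ran from −1.85 for antagonists to 1.07 for nuclear genes, and DKK1 stood apart from the 5 antagonists that were called lower. The antagonist median was −1.89 with the GC and length correction and −0.23, over 6 genes, with the background removed. The nuclear median was −0.06 with that correction and 1.33 with the background removed.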

How the data were processed

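Expression was measured by strand-marked total RNA sequencing (lncRNA-seq) in 3 BCSC and 3 non-BCSC libraries, grouped by sample titles. The authors deposited whole-number estimated counts per transcript, not normalized. The labels name HISAT2, featureCounts, DESeq2 and hg38, while the study's RNA-seq methods name hg19. Coordinates here are RefSeq GRCh38.p14. How reads were divided among transcripts, and whether counting used strand, is not given in the sources used here, so reads of antisense transcripts cannot be told apart. The authors' alignment and counting were not repeated.

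Of 252618 transcripts, 249787 matched GENCODE (lift37) by identifier, holding 99.7% of counts, and were summed per gene. Mean transcript length and GC content per gene came from that annotation. The edgeR package 4.0.16 (R 4.3.3) was run on genes passing filterByExpr, with TMM scaling and a robust quasi-likelihood fit, group only, with Benjamini-Hochberg adjustment over all 20442 genes. Values are means ± SD (n = 3), and log2 fold changes set BCSC over the other group. Levels per kb use the count-weighted mean transcript length. The test was checked on simulated counts. A count of 0 allows 3 counts, 0.141 to 0.303 CPM by library. Without molecular identifiers in the reads, that limit covers counting error only.

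Alternatives were RLE factors, DESeq2 1.42.0, other low-count filters, a replicate block, each library left out, no minimum fold, a per-library loess correction (span 0.3) for GC content and length, removal of a background set by olfactory receptor counts per kb, and transcripts as deposited. Named genes were the members, the 3 genes per list with the smallest p and a mean of at least 50 counts, each member's 2 most abundant transcripts and any called transcript. The members, lists and alternatives were chosen with earlier results of these data known.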

Additional observations from a re-analysis of the deposited data

How the results depend on the processing

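DKK1 was called higher in all 14 alternatives. Among members called lower (0 as reported), 1 was called with at least 10 counts in every library, 1 with the GC and length correction and 1 with the background removed, SFRP1 each time, and 3 were past the adjusted p with no minimum fold. Among other pathway genes, the 16 higher became 5 to 18 with 1 library left out, 24 with no minimum fold, 2 with the GC and length correction and 0 as transcripts. The 10 lower became 4 to 10, 5 with the background removed and 0 as transcripts. DESeq2 called 8 member transcripts higher and 1 lower, in place of 1 and 0, and each library left out gave 0.

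Direction turned for AXIN2 (−0.61 to 0.36 with 1 library left out, the latter without non-BCSC replicate 3, and 0.87 with the background removed) and for TCF7L2 (−0.019 with at least 10 counts in every library, −0.16 with the GC and length correction, −0.15 with the background removed). With the GC and length correction it also turned for FZD2 (−0.58), WNT5B (−0.25), WNT3 (−0.28), CSNK1D (−0.38), CREBBP (−0.10) and BCL9L (−0.021). That correction changed the log2 fold change of a gene by a median of 0.20, while the median over all genes went from −0.05 to −0.18. The filter of at least 10 counts changed a gene's value by a median of −0.15.

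Deviations from the group means correlated at 0.179, 0.014 and 0.219 for same-numbered libraries and at −0.2 to 0.054 for differently numbered ones. Nothing states that equal numbers are pairs, and these values do not settle it. The reported fit used no pairs, and a replicate block was run as an alternative. With a replicate block, 1994 genes were called higher and 2321 lower in place of 1810 and 2307, 1 member was called higher, 0 lower, and 0 member transcripts in place of 1. The causes of these shifts were not tested. WNT5B, FZD2 and AXIN2 had mean counts of 20.8, 59.2 and 69.8, the fewest of the 10 genes.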

Other observations

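Some pathway genes with few counts were called lower in BCSC at levels near those of olfactory receptor genes. Of the 17 tested pathway genes with a mean under 50 counts, 5 were called lower and 0 higher: WNT2, DKK2, FRZB, SFRP4 and WIF1, named after their values were seen. Over all genes tested, 11.3% were called lower and 8.85% higher. These 5 genes, with few or no counts in BCSC, passed the filter on low counts only through their non-BCSC libraries. A gene that passes this way can only be called lower, so the direction is no result about the pathway. Their non-BCSC counts per kb were 0.699 to 1.81 times those of olfactory receptor genes. WNT2, a canonical ligand, had 0 counts in each BCSC library and 39, 14 and 42 in non-BCSC, at least 16.2-fold lower against a floor of 3 counts per library. DKK2, FRZB, SFRP4 and WIF1 are secreted antagonists, and they are 4 of the 5 antagonists called lower. The 25 pathway genes that were not tested had at most 29 counts in any library.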
